A study of Mus musculus with 6 samples.

Results

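The genes described here are 10 imprinted genes linked to growth and to fat tissue, Nnat, Peg3, Plagl1, Mest, H19, Igf2, Zim1, Dlk1, Cdkn1c and Grb10, out of 24539 genes counted in epididymal white fat. They were picked with their levels in both genotypes known, so their difference between Jmjd8-KO and wild-type (WT) mice is given below as a description, without a p-value. Epididymal white fat is the fat pad beside the epididymis of male mice. RNA came from 3 Jmjd8-KO mice and 3 WT mice, all of the C57BL/6 strain and all kept on a high-fat diet (HFD), with no further treatment. The design text counts 3 mice for each genotype, so the libraries are separate animals. What the knockout allele removes, and how old the mice were, is not stated. All 10 genes passed the filter on low counts that left 14322 genes for testing.

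An imprinted gene is one that is transcribed mainly from the copy inherited from 1 parent, according to DNA methylation laid down in the egg or sperm. In mice, Nnat, Peg3, Plagl1, Mest, Igf2 and Dlk1 are known to be expressed from the paternal copy, and H19, Zim1 and Cdkn1c, and in most tissues Grb10, from the maternal copy. Many of these genes act on fetal growth and are turned down after birth, and several stay active in fat. Mest is known as a gene whose level goes with the expansion of mouse adipose tissue, and Dlk1, also called Pref-1, as a membrane protein of preadipocytes that restrains their differentiation. The counts do not separate the parental copies, so levels are described here and imprinting itself is not.

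The genes sit in a few known clusters (GENCODE M21 positions on GRCm38, the assembly also called mm10). Of the 10, 5 lie on chromosome 7. Zim1, from 6671269 to 6696450, and Peg3, from 6703892 to 6730431, are 7.44 kilobases apart, both on the minus strand. H19 (142575529 to 142578143) and Igf2 (142650766 to 142666816), also on the minus strand of chromosome 7, are 72.6 kilobases apart, and Cdkn1c (143458339 to 143461050, minus strand) lies farther along. Nnat lies on chromosome 2 (157560078 to 157562522, plus strand), inside Blcap, a gene of the opposite strand with which it shares no exon base. Mest lies on chromosome 6 (30723547 to 30748465, plus strand), Plagl1 on chromosome 10 (13060504 to 13131694, plus strand), Grb10 on chromosome 11 (11930508 to 12038683, minus strand) and Dlk1 on chromosome 12 (109452823 to 109463336, plus strand).

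The promoter windows of Nnat, Peg3 and Plagl1 are shown because these 3 had the largest ratios in the Jmjd8-KO direction. Each runs from 250 bases before to 50 bases after a start in RefSeq (GRCm38.p6), on the strand of the gene, with matches to GGGCGG (the core bound by Sp1) or to CCAAT, on either strand, in capitals. The window of Nnat is chr2:157559828-157560127, that of Peg3 chr7:6730370-6730669 and that of Plagl1 chr10:13090582-13090881.
Nnat: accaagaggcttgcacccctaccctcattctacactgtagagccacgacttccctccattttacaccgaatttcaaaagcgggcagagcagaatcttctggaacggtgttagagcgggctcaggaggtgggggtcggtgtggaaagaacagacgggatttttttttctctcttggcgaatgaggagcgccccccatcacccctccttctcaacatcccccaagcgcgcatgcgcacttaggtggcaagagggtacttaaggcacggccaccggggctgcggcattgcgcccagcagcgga
Peg3: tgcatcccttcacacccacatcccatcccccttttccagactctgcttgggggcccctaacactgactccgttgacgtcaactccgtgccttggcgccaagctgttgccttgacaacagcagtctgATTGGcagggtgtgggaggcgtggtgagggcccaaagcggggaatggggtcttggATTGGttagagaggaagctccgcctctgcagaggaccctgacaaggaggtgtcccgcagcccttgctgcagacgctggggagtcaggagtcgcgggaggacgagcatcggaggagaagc
Plagl1: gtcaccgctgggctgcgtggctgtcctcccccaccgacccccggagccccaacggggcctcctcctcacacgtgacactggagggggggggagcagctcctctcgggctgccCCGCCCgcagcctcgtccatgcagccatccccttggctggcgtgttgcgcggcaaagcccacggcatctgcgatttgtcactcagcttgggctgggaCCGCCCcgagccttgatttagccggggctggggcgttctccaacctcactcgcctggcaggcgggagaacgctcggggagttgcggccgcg

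These windows share no match to the motifs searched. GGGCGG was found 2 times in the Plagl1 window and in neither of the others, and CCAAT 2 times in the Peg3 window, both on the opposite strand, and in neither of the others. Of all 32851 windows of the same length, 35.7% hold GGGCGG and 37.4% hold CCAAT. The motif TATAAA, found in 13.6% of all windows, was in no window of the 8 listed genes with an entry. H19 and Cdkn1c have no entry. The windows hold 17 CpG sites for Nnat, 13 for Peg3 and 26 for Plagl1, against a median of 7 over all windows. Observed over expected CpG was 0.69 for Nnat, 0.463 for Peg3 and 0.696 for Plagl1, against a median of 0.384. The Peg3 window also holds the start of Usp29, which begins at 6730578 on the plus strand. The Plagl1 window also holds the first bases of the noncoding RNA Hymai, which spans 13090845 to 13095900. It lies inside the GENCODE span of Plagl1, which begins at 13060504, and not at its outer end.

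Mature microRNAs that lie within H19 and Mest are shown because the host genes were lower in Jmjd8-KO fat, with the seed (bases 2 to 8) in capitals. In H19 the microRNAs lie in an exon (chr7:142577112-142577133 and chr7:142577078-142577099, minus strand). In Mest they lie in an intron (chr6:30741314-30741336 and chr6:30741354-30741375, plus strand).
mmu-miR-675-5p: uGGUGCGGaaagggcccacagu
mmu-miR-675-3p: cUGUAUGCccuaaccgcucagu
mmu-miR-335-5p: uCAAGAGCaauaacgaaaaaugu
mmu-miR-335-3p: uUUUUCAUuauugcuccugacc

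No seed is shared among them. The libraries were made for long RNA, and the rows for these hairpins held almost nothing: Mir675 had 1 count, in WT replicate 1, and Mir335 had 1 count, in WT replicate 2. The microRNAs themselves were therefore not measured.

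Total counts were between 17598696 and 20598473 per library. The knocked-out gene was checked first: Jmjd8 had 748, 1147 and 728 counts in the 3 Jmjd8-KO libraries and 2277, 2284 and 2209 counts in the 3 WT libraries (log2 fold change -1.28, SE 0.144, edgeR adjusted p = 0.0193; 0.058 to 0.137 when any mouse other than Jmjd8-KO replicate 2 was left out). A library in each group stood apart. WT replicate 1 carried neuronal transcripts, with all 12 neuron markers highest there and a summed level of 1033 CPM, against 20.5 to 21.8 CPM in Jmjd8-KO fat and 26.0 and 26.7 CPM in the other WT mice; CPM is the count scaled to a common library size, with TMM factors. The counts of Jmjd8-KO replicate 2 lay far from those of its group: chi-square divided by degrees of freedom came to 48.3 and 45.1, and to 3.07 for the remaining pair. All 12 adipocyte markers were detected in every library, with a summed level of 26870 to 31360 CPM in Jmjd8-KO fat and 22940 to 24860 CPM in WT. In the same order, the summed level was 2482 to 2833 against 3550 to 3665 CPM for 10 macrophage markers, 309.4 to 336.5 against 153.1 to 211.9 CPM for 8 mesothelial markers and 5761 to 8323 against 5830 to 6203 CPM for 12 stromal progenitor markers. The 8 endothelial markers summed to 826.3 to 947.2 CPM in Jmjd8-KO fat and 845.6 to 904.6 CPM in WT, and 7 skeletal muscle markers to 62.8 to 71.6 CPM in Jmjd8-KO fat and 69.9 to 78.55 CPM in WT. Markers of the epididymal epithelium were nearly absent, at 0.0527 CPM or less in Jmjd8-KO fat and 0.604 to 1.13 CPM in WT, with Lcn5, Lcn9, Adam7 and Cst11 at 0 in all libraries. The part of any of these markers in the levels of the 10 genes was not tested.

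The 10 genes spanned a wide range of levels. On the deposited RPKM scale (reads scaled for gene length and library size), which allows genes to be compared, Mest came first with a mean of 556.4 over the 6 mice, above 99.7% of tested genes, and Nnat second with 323.7, above 99.2%. Mest and Nnat overlapped when all mice were pooled, with a lowest value of 415.3 RPKM for Mest and a highest of 433.7 RPKM for Nnat. A middle group followed, with mean levels of 14.1 RPKM for Peg3, 11.05 for Plagl1, 10.7 for Grb10 and 7.62 for Cdkn1c, each overlapping the next. Igf2 stood alone below them at 2.27 RPKM. The lowest were H19 at 0.502 RPKM, Zim1 at 0.365 and Dlk1 at 0.181, which overlapped their neighbours in this order. H19 and Dlk1 had between 11 and 37 counts per library.

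**Figure D1:**
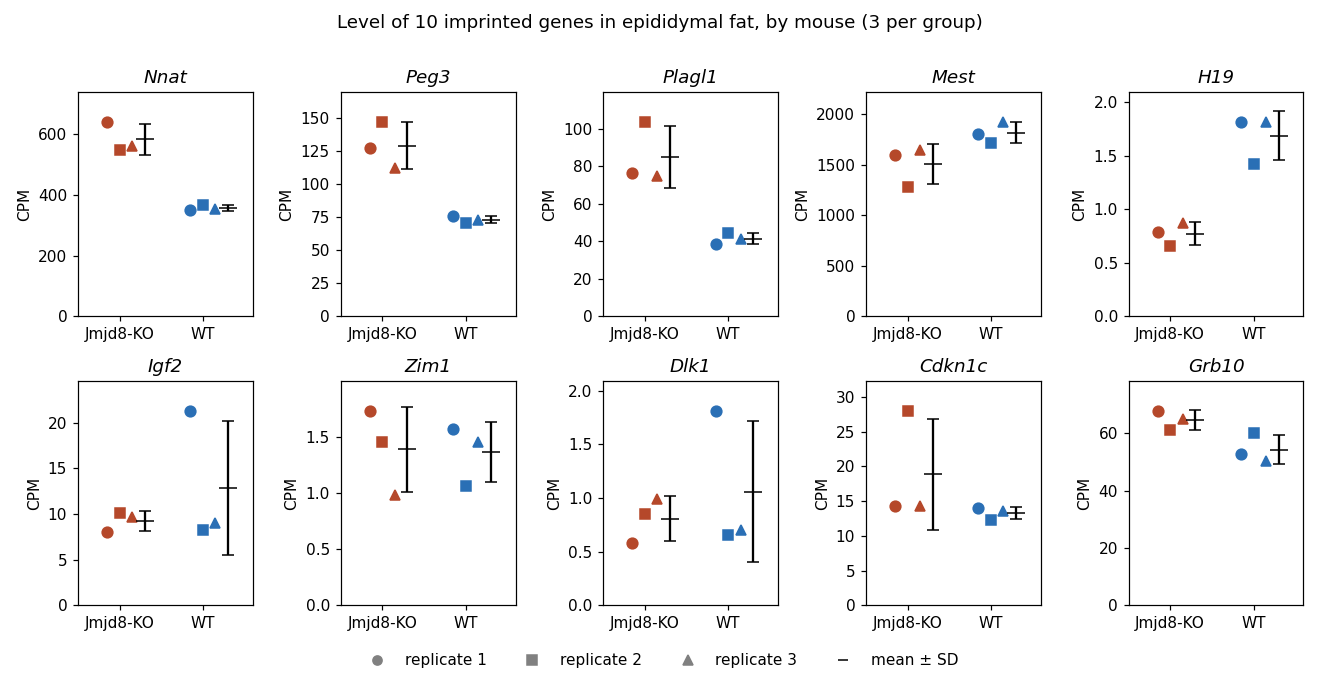
Level of each of the 10 imprinted genes in CPM (TMM-scaled; linear axes that start at 0) in 3 Jmjd8-KO mice (red, left) and 3 WT mice (blue, right); symbols give the replicate number, and the bar beside each group its mean ± SD. For Nnat, Peg3 and Plagl1 all Jmjd8-KO mice lie above all WT mice, for H19 and Mest all lie below, and the wide bars of Cdkn1c in Jmjd8-KO and of Igf2 and Dlk1 in WT each come with 1 high mouse.

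Of the 10 genes, 3 passed the threshold of edgeR's test over all genes (adjusted p under 0.05), all higher in Jmjd8-KO: Nnat, Peg3 and Plagl1. Over all tested genes 0.789% passed as higher, 1.33% as lower and 2.12% in either direction; the genes were chosen on this contrast, so nothing is read from that count. It was 3 without Jmjd8-KO replicate 2, where 9.34% of all tested genes passed, and 0 without WT replicate 1, where 0.118% passed. It was also 0 without any 1 of the other 4 mice, where at most 0.0276% of all tested genes passed. The groups did not overlap in 5 genes higher in Jmjd8-KO (Nnat, Peg3, Plagl1, Cdkn1c and Grb10) and in 2 lower ones (Mest and H19), where 14.2% of all tested genes were higher and 15.3% lower without overlap. In bulk tissue, fewer cells of a type and less RNA per cell cannot be told apart.

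Of the zinc finger genes, Plagl1 and Peg3 were higher in Jmjd8-KO fat without overlap, and Zim1 overlapped between the groups. Plagl1 encodes a transcription factor, also called Zac1, that slows the cell cycle and in mice acts on other imprinted genes, among them H19, Igf2, Dlk1 and Cdkn1c. It had 76.3, 104.0 and 74.9 CPM in the Jmjd8-KO mice and 38.6, 44.6 and 41.45 CPM in the WT mice. All Jmjd8-KO values lay above all WT values, with the highest in Jmjd8-KO replicate 2. The means were 85.0 ± 16.4 CPM in Jmjd8-KO fat and 41.55 ± 3.00 CPM in WT (SD, n = 3 each), a log2 fold change of 1.03, and 0.86 without Jmjd8-KO replicate 2.

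Peg3 encodes a large zinc finger protein, also called Pw1, that is expressed in progenitor cells of several adult tissues. Its level was 127.8, 147.5 and 112.4 CPM in Jmjd8-KO fat and 75.9, 70.8 and 73.1 CPM in WT. Again no Jmjd8-KO mouse overlapped a WT mouse, and the SD was 17.6 CPM in Jmjd8-KO fat and 2.58 CPM in WT. The ratio of the means was 1.76 and the log2 fold change 0.82 (0.71 without Jmjd8-KO replicate 2, 0.84 without WT replicate 1). Zim1, the maternally expressed zinc finger neighbour of Peg3, had 1.74, 1.46 and 0.987 CPM in Jmjd8-KO fat and 1.57, 1.06 and 1.46 CPM in WT. The groups overlapped over nearly their whole range (1.40 ± 0.38 CPM in Jmjd8-KO fat and 1.36 ± 0.267 CPM in WT). Whether Zim1 and Peg3 differ in their response was not tested.

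Nnat and Mest, the abundant pair, went opposite ways. Nnat encodes neuronatin, a small membrane protein of the endoplasmic reticulum (ER) found in neurons, endocrine cells and adipocytes. It reached 640.8, 545.8 and 560.6 CPM in Jmjd8-KO fat and 350.1, 367.8 and 352.1 CPM in WT. The lowest Jmjd8-KO mouse was above every WT mouse, and WT replicate 1 did not stand out. Means were 582.4 ± 51.1 CPM in Jmjd8-KO fat and 356.6 ± 9.72 CPM in WT, a ratio of 1.63 and a log2 fold change of 0.71, which stayed between 0.63 and 0.75 over the 14 alternatives. Mest encodes an ER membrane protein with the fold of a hydrolase. Its level was 1594, 1281 and 1652 CPM in Jmjd8-KO fat and 1810, 1717 and 1929 CPM in WT. The highest Jmjd8-KO value, 1652 CPM, lay just under the lowest WT value, 1717 CPM. The log2 fold change was -0.27, and -0.17 without Jmjd8-KO replicate 2, the lowest Jmjd8-KO mouse.

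Of the growth signals, H19 was lower in every Jmjd8-KO mouse and Igf2 and Dlk1 were not. H19 is a noncoding RNA that shares enhancers with Igf2 and is expressed from the other parental copy. It had 15, 13 and 15 counts in Jmjd8-KO fat and 37, 28 and 36 counts in WT, or 0.772 ± 0.11 CPM and 1.68 ± 0.229 CPM. The log2 fold change was -1.13 and stayed between -1.24 and -0.96 over the alternatives. At these counts the counting error of a single library is large. All 3 Jmjd8-KO mice were below all 3 WT mice, as in 15.3% of all tested genes. H19 was picked with these levels known, so nothing is read from this separation.

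Igf2 encodes insulin-like growth factor 2, a secreted growth factor of fetal life. It had 8.01, 10.05 and 9.64 CPM in Jmjd8-KO fat and 21.3, 8.21 and 8.96 CPM in WT. WT replicate 1 was 2.47 times the mean of the other WT mice, and those lay within the Jmjd8-KO range. The log2 fold change was -0.48 with all mice and 0.10 without WT replicate 1, so its sign rested on that mouse. Dlk1 showed the same layout, with 11, 17 and 17 counts in Jmjd8-KO fat and 37, 13 and 14 counts in WT. WT replicate 1 was again 2.45 times the mean of the other WT mice, and the log2 fold change was -0.40 with it and 0.23 without it. In the same library the neuron markers summed to 1033 CPM; their part in the levels of Igf2 and Dlk1 was not tested.

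The growth inhibitors Cdkn1c and Grb10 were higher in every Jmjd8-KO mouse than in any WT mouse, by narrow margins at the nearest mice. Cdkn1c encodes p57Kip2, an inhibitor of cyclin-dependent kinases. It had 14.23, 28.05 and 14.23 CPM in Jmjd8-KO fat and 14.0, 12.3 and 13.55 CPM in WT. Jmjd8-KO replicate 2 had 1.96 times the mean of the other Jmjd8-KO mice, which lay just above the highest WT mouse. The log2 fold change was 0.50 with all mice and 0.10 without Jmjd8-KO replicate 2. In that library some marker lists also reached their highest sums, 31360 CPM for adipocyte markers (7 of 12 highest there), 947.2 CPM for endothelial markers (4 of 8) and 8323 CPM for stromal progenitor markers (2 of 12). Of all tested genes with a mean of at least 5 CPM, 35.0% were highest there. Macrophage (0 of 10), mesothelial (4 of 8) and neuron markers (0 of 12) had their lowest Jmjd8-KO sums there, 2482, 309.4 and 20.5 CPM. The part of any of these lists in the level of Cdkn1c was not tested. Grb10 encodes an adaptor that binds the insulin and IGF1 receptors and dampens their signal. It had 67.9, 61.1 and 64.9 CPM in Jmjd8-KO fat and 52.65, 60.05 and 50.3 CPM in WT. The lowest Jmjd8-KO mouse lay just above the highest WT mouse, and the log2 fold change was 0.25.

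**Figure D2:**
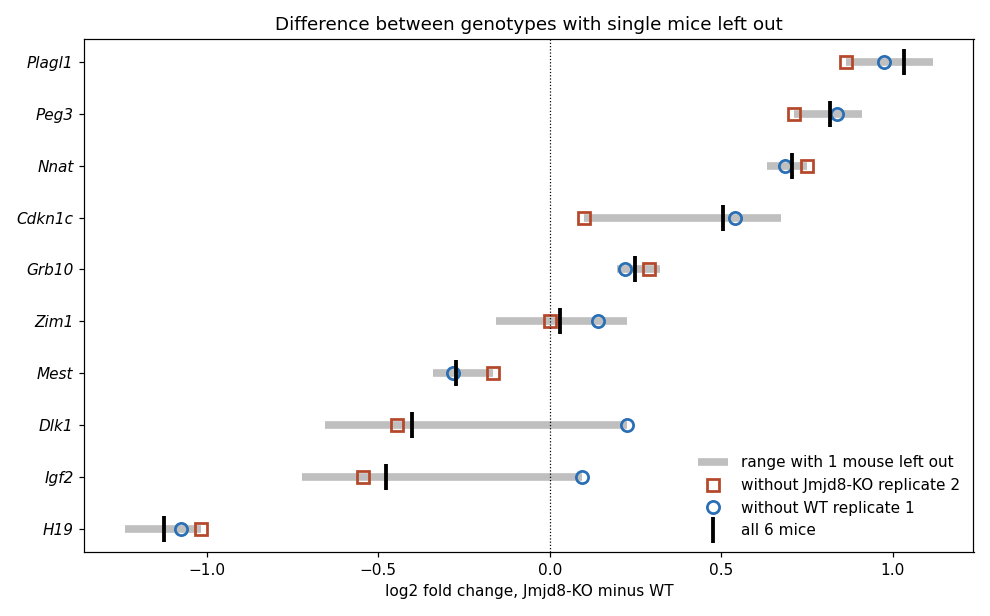
Fitted log2 fold change (Jmjd8-KO minus WT; x axis) of each gene with all 6 mice (black bar), without Jmjd8-KO replicate 2 (red square), without WT replicate 1 (blue circle) and over all 6 fits that leave out 1 mouse (grey). Plagl1, Peg3 and Nnat stay above 0 and H19 and Mest below it, Cdkn1c drops to 0.10 without Jmjd8-KO replicate 2, and Igf2 and Dlk1 change sign without WT replicate 1.

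The paternally expressed genes did not form 1 pattern across the mice, nor did the maternal ones. Of the paternally expressed ones Nnat, Peg3 and Plagl1 were higher in Jmjd8-KO, Mest was lower and Igf2 and Dlk1 overlapped, and among the maternally expressed genes H19 was lower, Cdkn1c and Grb10 were slightly higher and Zim1 overlapped. Likeness was measured as the root mean square difference between log2 CPM values, each gene centred on its own mean over the 6 libraries. The likest pair was Igf2 with Dlk1 (0.129), followed by Peg3 with Plagl1 (0.154) and Nnat with Peg3 (0.162). The least alike were Plagl1 and H19 (1.07), which differed in opposite directions. These values include the difference between genotypes, which was known when the genes were chosen. For Igf2 and Dlk1 they include the high WT replicate 1. Genes outside the list, with a mean of at least 5 CPM, came closer to Igf2 (0.0694), Peg3 (0.0545), Plagl1 (0.0632) and Nnat (0.0548). None came closer to Dlk1 than Igf2 did (nearest 0.161). No grouping is read from the order of the pairs.

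Among 11215 other genes with a mean of at least 5 CPM, the 2 with the smallest such difference were looked up for each of the 10. The median difference over all these genes was 0.387 for Nnat, 0.237 for Mest and 0.218 for Grb10, so values do not compare directly between the 10. These are the smallest values of a wide search over 6 libraries, and no shared function is read from them. Nearest to Nnat was Acvr1c, the activin receptor ALK7 of adipocytes, with a difference of 0.0548. It had 134.6, 114.8 and 119.0 CPM in Jmjd8-KO fat and 72.45, 85.2 and 73.4 CPM in WT. Nearest to Plagl1 was Thrsp, a regulator of lipogenesis (0.0632), then Apcdd1, an inhibitor of Wnt signalling (0.0685). Peg3 was followed by Fbxo21, a subunit of a ubiquitin ligase (0.0545), and Ndrg2 (0.0613). H19 was followed by Clec7a, the myeloid receptor dectin-1 (0.0594), and Cdca3, a gene of cell division (0.0633). Igf2 and Dlk1 had the same nearest gene, Cpt1c (0.0694 and 0.161), a carnitine palmitoyltransferase of the brain. Mest was nearest to Leprot (0.0291) and C2cd2 (0.0299), Grb10 to Cbl (0.0283) and Shprh (0.0300), Cdkn1c to Uqcc3 (0.0429) and Nog (0.0466), and Zim1 to Mplkip (0.128) and Nrarp (0.138). Second to Nnat was Sh3d21 (0.0599), second to Igf2 was Lrrn2 (0.0930) and second to Dlk1 was Islr2 (0.165).

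The other genes of each cluster were tested where their counts passed the filter. Around Nnat, Blcap had 94.9 ± 7.49 CPM in Jmjd8-KO fat and 80.7 ± 1.74 CPM in WT fat (log2 fold change 0.23, SE 0.080, edgeR adjusted p = 0.187). Within each library, the count of Nnat over that of Blcap was 6.42, 6.33 and 5.69 in Jmjd8-KO fat and 4.43, 4.46 and 4.36 in WT. Near Plagl1, Phactr2, a regulator of phosphatase and actin, did not pass (log2 fold change 0.08, SE 0.131, edgeR adjusted p = 0.747). Hymai, a noncoding RNA whose start lies within Plagl1, had 5, 27 and 4 counts in Jmjd8-KO fat and 1, 2 and 2 counts in WT, too few to be tested. Of its 5056 bases, 218 lie on exons of Plagl1.

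In the Peg3 cluster, Peg3os, an antisense transcript whose 865 bases all lie on exons of Peg3, had 471, 285 and 370 counts in Jmjd8-KO fat and 290, 248 and 285 counts in WT (log2 fold change 0.56, SE 0.20, edgeR adjusted p = 0.20). The strand setting of the counting is not stated, so reads of Peg3 and Peg3os in these bases cannot be told apart. The ratio of Peg3 to Peg3os counts was 5.15, 10.3 and 5.23 in Jmjd8-KO fat and 5.33, 5.63 and 5.09 in WT, with Jmjd8-KO replicate 2 apart. Usp29, a ubiquitin protease that starts beside Peg3, had 47 counts in WT replicate 1 and 0 in the other 5 libraries, and Zim3 had 12 counts there and 0 elsewhere. Zim2 was at 0 throughout.

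Copg2, a subunit of the coat of transport vesicles, runs into the end of Mest from the opposite strand. The pair share 912 exon bases, 23.1% of the exon length of Mest. Copg2 had 12357, 8607 and 11005 counts in Jmjd8-KO fat and 15929, 14225 and 16225 counts in WT, and did not pass (log2 fold change -0.43, SE 0.16, edgeR adjusted p = 0.212). Like Mest, it was lowest in Jmjd8-KO replicate 2. The ratio of Mest to Copg2 counts was 2.45, 2.96 and 2.59 in Jmjd8-KO fat and 2.31, 2.38 and 2.36 in WT. How many Copg2 counts came from Mest was not tested. Genes with shared exons could both receive the same reads: Snurf, which lies in Snrpn, had the same count as Snrpn in 5 of 6 libraries. Klf14, an imprinted transcription factor near Mest, did not pass (log2 fold change -0.17, SE 0.109, edgeR adjusted p = 0.417), and Cpa4 had 1 count in all.

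**Figure D3:**
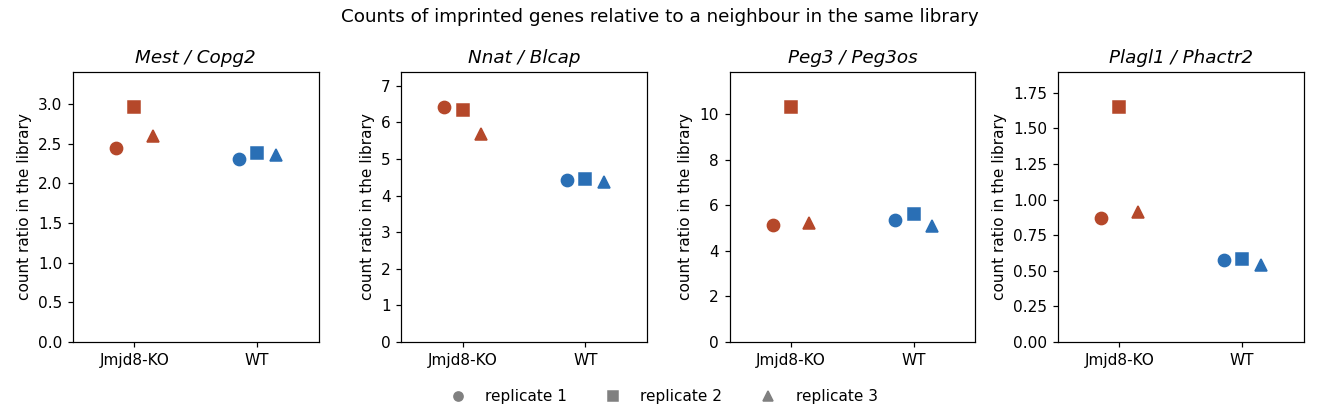
Count of an imprinted gene divided by that of a neighbour in the same library (y axis, linear from 0) for 3 Jmjd8-KO mice (red, left) and 3 WT mice (blue, right), by replicate. Nnat over Blcap, Plagl1 over Phactr2 and Mest over Copg2 are higher in each Jmjd8-KO library than in any WT library. Mest over Copg2 ranges only from 2.31 to 2.96 over all libraries, and Peg3 over Peg3os reaches 10.3 in Jmjd8-KO replicate 2.

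On the far side of the Dlk1 domain, the maternally expressed noncoding RNAs Meg3 and Rian were far more abundant than Dlk1. Mirg was nearer to it, at 1.19 RPKM in Jmjd8-KO fat and 1.10 RPKM in WT, against 0.152 and 0.210 RPKM for Dlk1. Meg3 had 1218, 1073 and 1030 counts in Jmjd8-KO fat and 1806, 1650 and 1454 counts in WT. All Jmjd8-KO values lay below all WT values, without passing (log2 fold change -0.47, SE 0.104, edgeR adjusted p = 0.0732). Rian, transcribed onward from Meg3, had a log2 fold change of -0.48 (SE 0.19, edgeR adjusted p = 0.233), Mirg one of 0.18 (0.669), Dio3, the deiodinase that inactivates thyroid hormone, one of -0.82 (0.371) and Begain one of -1.28 (0.314), with adjusted p in brackets. Begain had 203 counts in WT replicate 1 and 24 to 54 elsewhere. Rtl1 had 5 to 9 counts in each library and was not tested.

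Around Cdkn1c, Dhcr7, the last enzyme of cholesterol synthesis, had 48.0, 33.5 and 51.9 CPM in Jmjd8-KO fat and 72.7, 71.9 and 73.0 CPM in WT fat (log2 fold change -0.71, SE 0.156, edgeR adjusted p = 0.0713). Osbpl5 (log2 fold change 0.28), Slc22a18 (0.54), Tspan32 (0.38) and Nap1l4 (0.26) were higher in every Jmjd8-KO mouse than in any WT mouse and did not pass (edgeR adjusted p from 0.144 for Osbpl5 to 0.329 for Nap1l4). Cd81 (-0.25), Kcnq1 (-0.18), the noncoding Kcnq1ot1 (-0.37) and Tssc4 (0.04) overlapped between the groups. Ascl2 had 2 to 9 counts per library, and Phlda2, Th, Ins2 and Mir483 had 0 in all. Igf2os, the antisense transcript of Igf2, had at most 3 counts. Beside Grb10, Cobl did not pass (log2 fold change 0.17, SE 0.189, edgeR adjusted p = 0.655), and Ddc had 22 counts in WT replicate 1 and 3 to 5 elsewhere.

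Over the whole list of other genes reported as imprinted in some mouse tissue, none passed. Of 72 listed in the table, 53 were tested, 0 rose and 0 fell by edgeR, 16 (30.2%) had an unadjusted p under 0.05, against 19.1% of all tested genes, and the median log2 fold change was -0.05, against -0.01 over all genes. DESeq2 called 4 of 56, where it called 6.93% of all genes, and limma-voom with quality weights 9 of 53, where it called 14.2% of all genes. The groups did not overlap in 34.0% of them, 8 higher and 10 lower in Jmjd8-KO, against 29.5% of all tested genes. Outside the clusters above, the smallest p was that of Gatm, an enzyme of creatine synthesis (11.5 ± 3.01 CPM in Jmjd8-KO fat and 22.1 ± 2.00 CPM in WT, edgeR adjusted p = 0.0676). Next came Trappc9 (log2 fold change 0.31, adjusted p = 0.0964), Peg10, a gene derived from a retrotransposon (-0.28, 0.164), Zrsr1 (0.27, 0.167), Herc3 (-0.40, 0.204), Sfmbt2 (-0.97, 0.221), Inpp5f (-0.29, 0.253) and Rasgrf1 (-3.67, 0.255). Without Jmjd8-KO replicate 2, where 9.34% of all genes passed, 3 rose and 3 fell. Without WT replicate 1, where 0.118% of all genes passed, none did.

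WT replicate 1 also set apart some of these other imprinted genes. In it, 6 of the 53 were at least 2-fold above the mean of the other WT mice, or 11.3%, against 4.50% of all tested genes. They were Rasgrf1, with 737 counts against 18 and 17 in the other WT mice, Nap1l5, Zdbf2, Begain, Snrpn and Snurf. Snrpn and Snurf had equal counts in 5 of 6 libraries and differed by at most 4, so they are not separate observations. Of the listed 10, Igf2 and Dlk1 shared this, while Nnat, Peg3 and Plagl1 in WT replicate 1 stood at 0.973, 1.06 and 0.898 times the mean of the other WT mice. Jmjd8-KO replicate 2 had 1 of the 53 at least 2-fold above the mean of the other Jmjd8-KO mice, Peg12, or 1.89%, against 1.99% of all genes. At least 2-fold below that mean were 3 of the 53, or 5.66%, against 2.12% of all genes.

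In the insulin-like growth factor system, in which Igf2 and Grb10 act, none of the other listed genes passed, as Igf2 and Grb10 themselves did not. Of 25 tested genes 0 rose and 0 fell by edgeR, with 13 (52.0%) at an unadjusted p under 0.05, against 19.1% of all tested genes. DESeq2 called 7, 6 of them higher (6.93% of all genes called), and limma-voom 10 (14.2% of all genes). Without Jmjd8-KO replicate 2 edgeR called 5 as higher and 1 as lower, where 9.34% of all genes passed. The median log2 fold change was 0.18, against -0.01 over all genes, and the groups did not overlap in 52.0% of these genes, against 29.5% overall. This list, like the other lists here, was chosen with earlier results of these data known. Its shares against all genes are therefore a description, and no shift of the system is read from them. Igfbp5, an IGF-binding protein, had 802.6, 571.8 and 867.1 CPM in Jmjd8-KO fat and 418.9, 478.1 and 456.3 CPM in WT fat (log2 fold change 0.73, SE 0.156, edgeR adjusted p = 0.0684). Igf2bp2, a protein that binds Igf2 messenger RNA, had 17.1 ± 3.03 CPM in Jmjd8-KO fat and 26.6 ± 0.907 CPM in WT (adjusted p = 0.0718), and Irs2, a substrate of the insulin receptor, 50.1 ± 3.11 CPM in Jmjd8-KO fat and 39.2 ± 0.695 CPM in WT (also 0.0718). The receptors, named after their values were seen, had log2 fold changes of 0.04 for Igf1r, -0.05 for Igf2r, which clears IGF2 from the cell surface, and 0.18 for Insr.

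Among 19 tested partners of DLK1 and genes of the Notch pathway, 0 passed by edgeR. Of these, 6 (31.6%) had an unadjusted p under 0.05, against 19.1% of all tested genes. The median log2 fold change was 0.05, against -0.01 over all genes, and the groups did not overlap in 31.6%, against 29.5% of all tested genes. DESeq2 called 4 and limma-voom 6, and edgeR 4, all higher, without Jmjd8-KO replicate 2; over all genes the shares called were 6.93%, 14.2% and 9.34% under these settings. The smallest p-values were those of Dll4, a Notch ligand (24.8 ± 1.41 CPM in Jmjd8-KO fat and 18.2 ± 1.51 CPM in WT, edgeR adjusted p = 0.079), Itga5, a subunit of the fibronectin receptor (log2 fold change -0.41, adjusted p = 0.124), and Notch1 (0.26, adjusted p = 0.132). Of 18 inhibitors of cyclin-dependent kinases and cyclins of the G1 phase, 0 passed by edgeR, 3 (16.7%) had an unadjusted p under 0.05, against 19.1% of all tested genes, and the median was -0.03. DESeq2 called 3 and limma-voom 4, and edgeR 1 as higher and 3 as lower without Jmjd8-KO replicate 2, against the same 6.93%, 14.2% and 9.34% of all genes. Ccnd1, the cyclin D1, had 53.95 ± 3.41 CPM in Jmjd8-KO fat and 69.8 ± 3.45 CPM in WT (edgeR adjusted p = 0.0681), Cdk6 a log2 fold change of -0.59 (adjusted p = 0.079) and Ccnd3 of 0.26 (adjusted p = 0.119).

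Of the proteins that keep methylation at imprinted regions, and relatives of PLAGL1, 1 of 18 tested passed, and it fell, as did 1.33% of all tested genes. The groups did not overlap in 27.8% of them, against 29.5% of all tested genes, and the median log2 fold change was 0.04. That was Uhrf1, which brings the maintenance methyltransferase to newly copied DNA and is known as a gene of dividing cells. It fell to 5.10 ± 0.592 CPM in Jmjd8-KO, against 9.05 ± 0.865 CPM in WT fat (log2 fold change -0.83, SE 0.152, edgeR adjusted p = 0.0481). The list had 0 calls without any 1 mouse other than Jmjd8-KO replicate 2, where at most 0.118% of all genes passed. It had 2 without Jmjd8-KO replicate 2 (9.34% of all genes) and 0 with no filter on low counts (0.816% of all genes). Under the stricter filter Uhrf1 was not among the genes tested. Dnmt3l, a cofactor of DNA methylation in germ cells, had 2.98 ± 0.19 CPM in Jmjd8-KO fat and 4.75 ± 0.439 CPM in WT (adjusted p = 0.097), and Ctcfl, a paralog of CTCF, had 13.3, 24.5 and 11.7 CPM in Jmjd8-KO fat and 7.12, 8.77 and 8.36 CPM in WT (adjusted p = 0.123). The methyltransferase Dnmt1 (log2 fold change -0.26), the zinc finger protein Zfp57 (0.26), its partner Trim28 (0.12) and the insulator protein Ctcf (0.05), named after their values were seen, did not pass.

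**Figure D4:**
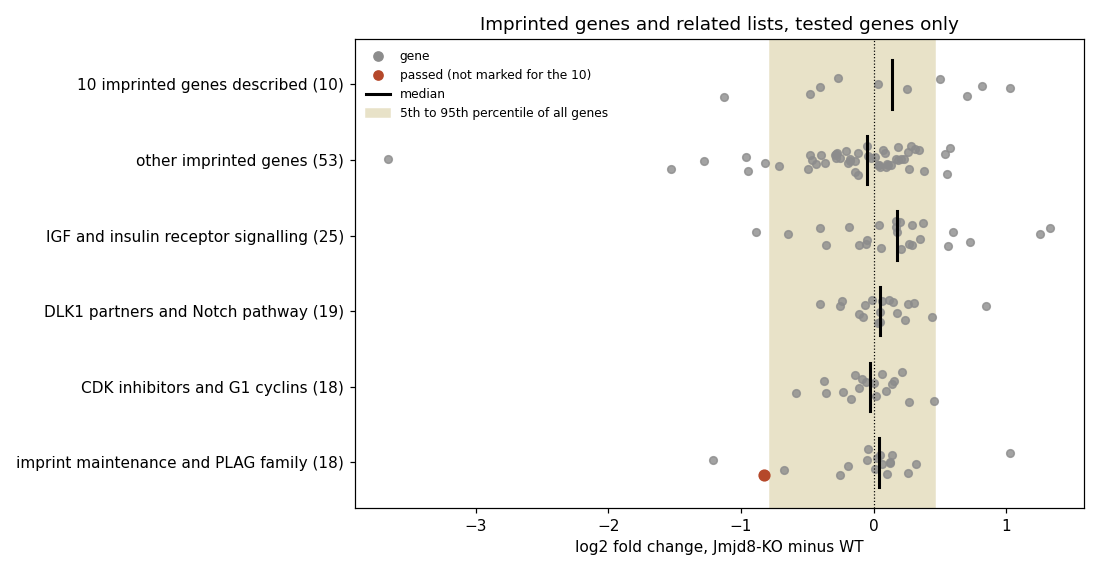
Log2 fold change (Jmjd8-KO minus WT; x axis) of each tested gene (dots, spread vertically for view) in the 10 imprinted genes described and in 5 other lists, with the median as a black bar and the band between the 5th and 95th percentiles of all tested genes, -0.78 to 0.46. The list medians lie between -0.05 and 0.18, Uhrf1 (red) is the 1 gene of the 5 other lists that passed, and Rasgrf1 is the dot farthest to the left.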

How the data were processed

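Gene counts and RPKM values from epididymal fat of 3 Jmjd8-KO and 3 WT mice were used. STAR, featureCounts and the build mm10 are named, per the submitters' processing notes; their versions and settings, the annotation and the strand are not stated. The deposited counts are raw, per the file headers, and total 17598696 to 20598473 per library. The RPKM columns were deposited by the authors and were used for levels and 1 alternative, not tested.

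Genes were kept by filterByExpr with a minimum count of 10 (14322 of 24539), scaled by TMM and tested for genotype with edgeR 4.0.16 (glmQLFit, glmQLFTest; R 4.3.3). p-values were adjusted over all tested genes by Benjamini and Hochberg; 0.05 was the threshold. Differences are Jmjd8-KO minus WT on the log2 scale, and each SE is the difference divided by the root of its F statistic. The test was tried on simulated counts. Alternatives used DESeq2 1.42.0 and limma 3.58.1 (limma-voom with quality weights), other filters and scalings, and mice left out.

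The 10 genes and all lists were chosen with earlier results of these data known. Genes named are the 10, their cluster neighbours, the 8 other imprinted genes and 3 per pathway list with the smallest p, and the 2 likest genes (0.1 CPM added before log2). Others are marked as named after their values were seen. Symbols matched GENCODE M21 for 97.3% of genes; RefSeq promoters were found for 8 of 10.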

Additional observations from a re-analysis of the deposited data

How the results depend on the processing

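Counts of calls depended on the setting. Over all genes the count was 304 (2.12%), and 372 (2.6%) with library size alone, 1022 (6.93%) with DESeq2 and 156 (0.816%) with no filter. It was 408 (4.2%) with the stricter filter of 10 CPM in 3 libraries and 2030 (14.2%) with limma-voom. With 1 mouse left out it was 0 to 1351 (0 to 9.34%). Without both Jmjd8-KO replicate 2 and WT replicate 1, an alternative chosen after seeing the data, it was 2833 (19.8%). The other imprinted genes had 0 calls of 53, and 4 of 56 with DESeq2, 2 of 35 with the stricter filter and 9 of 53 with limma-voom. They had 0 to 6 of 53 with 1 mouse left out and 16 of 52 without both libraries. The IGF and insulin receptor list had 0 of 25, and in the same order 7 of 25, 1 of 21, 10 of 25, 0 to 6 of 25 and 15 of 25. Of 19 tested, the DLK1 and Notch list had 0, and 4 with DESeq2 and 6 with limma-voom. It had 0 to 4 with 1 mouse left out and 7 without both. The CDK inhibitors and cyclins had 0 of 18, and 1 with library size alone, 3 with DESeq2 and 4 with limma-voom. They had 1 of 15 with the stricter filter, 0 to 4 of 18 with 1 mouse left out and 4 of 18 without both. Imprint maintenance had 1 of 18, and 2 of 19 with DESeq2, 0 of 19 with no filter and 5 of 18 with limma-voom. It had 0 of 13 with the stricter filter, which leaves out Uhrf1. It had 0 to 2 with 1 mouse left out and 6 of 18 without both. The cause of these changes was not tested.

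With the replicate number as a replicate block, 5 genes passed in all, 0 of the imprint maintenance list and 0 of the 10 imprinted genes; Jmjd8 had a log2 fold change of -1.30 with an adjusted p of 0.0615. The numbers did not pair the mice: deviations of same-numbered mice correlated at -0.045, -0.037 and 0.005. With 1 mouse left out Jmjd8 lay between -1.47 and -1.18. Scaling by library size alone moved the median of all genes from -0.01 to -0.08, and 77.4% of calls were then lower, against 62.8%. Nnat, Peg3, Plagl1, Mest, Cdkn1c and Grb10 kept their sign in all 14 alternatives and H19 in all 13 that gave it a value. These are the genes whose groups did not overlap. Leaving out mice could hardly reverse their sign, so nothing is read from its stability there. Igf2 and Dlk1 kept theirs in 11 of 13 and Zim1 in 7 of 13. H19, Dlk1 and Zim1, at under 2 CPM, are limited by counting error.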

Other observations

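Imprinted genes of the mouse region that corresponds to the one deleted in Prader-Willi syndrome were present in this fat at varied levels. They are named here after their values were seen. Ndn, a protein that restrains proliferation, had 632, 789 and 598 counts in Jmjd8-KO and 854, 585 and 642 counts in WT (log2 fold change 0.05, SE 0.147, edgeR adjusted p = 0.871). Snrpn, a splicing protein, had 774, 1057 and 656 counts in Jmjd8-KO and 1740, 715 and 761 counts in WT (log2 fold change -0.28, edgeR adjusted p = 0.671). Peg12 had 12, 30 and 8 counts in Jmjd8-KO and 12, 13 and 10 counts in WT, and Magel2 had 3 counts in WT replicate 1 and 0 in the other 5 libraries.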
